A study of Mus musculus with 9 samples.

Results

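The genes described here encode 9 adhesion molecules of the cell surface: Icam1, Icam2, Vcam1, Ncam1, Jam2, Jam3, Alcam, F11r and Thy1. They were found by symbol among the 55536 gene identifiers of the count tables, and each symbol matched 1 identifier. The list was chosen by gene name with its values in both groups of libraries already known, so the differences between those libraries are given for these genes as a description. The libraries come from quadriceps muscle of C57BL/6 mice with a surgical loss of muscle volume. All mice carry the same strain and age labels (6 weeks), and 4 libraries are labelled wild type and 5 Il17ra-/-. Il17ra encodes a receptor subunit for interleukin-17, and the removed stretch of the gene is not named. The labels conflict on the rest. The sample fields give saline as the material and a harvest at 1 week, whereas the extraction text gives PCL and a collection at 6 weeks, and the design text speaks of triplicate animals. No label ties a library to an animal, a run or a day, so p-values measure only the spread between these libraries and a batch cannot be told apart from genotype.

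Cell adhesion molecules of the immunoglobulin family hold cells to each other and to passing leukocytes. ICAM-1, ICAM-2 and VCAM-1 are receptors for leukocyte integrins: the ICAMs bind LFA-1, and VCAM-1 binds VLA-4. Icam1 and Vcam1 are classical genes induced by inflammatory cytokines through NF-kB, and interleukin-17 signals through the same factor. The junctional adhesion molecules, encoded by F11r (JAM-A), Jam2 (JAM-B) and Jam3 (JAM-C), sit at cell contacts and are tied to scaffold proteins inside the cell. NCAM and VCAM-1 are also known on muscle satellite cells, the stem cells of muscle, and NCAM returns to the surface of denervated fibres. ALCAM binds itself and the T cell protein CD6, and Thy1 is a small lipid-anchored protein found on fibroblasts, neurons and T cells.

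The promoter of Icam1 is shown because Icam1 was the gene of the 9 with the largest difference between the groups and because its proximal NF-kB element is well known. RefSeq promoter sequences, from 250 bases before to 50 bases after the annotated start, matched 3 of the 9 genes (Icam1, Alcam and F11r, build GRCm38.p6). The Icam1 window is chr9:21015690-21015989 on the plus strand. Capitals mark matches to a palindromic RelA element, GGAANTTCC, to a STAT (GAS) element, TTCNNNGAA, and to a TATA box, TATAAA, in that order from the left.

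Icam1 promoter: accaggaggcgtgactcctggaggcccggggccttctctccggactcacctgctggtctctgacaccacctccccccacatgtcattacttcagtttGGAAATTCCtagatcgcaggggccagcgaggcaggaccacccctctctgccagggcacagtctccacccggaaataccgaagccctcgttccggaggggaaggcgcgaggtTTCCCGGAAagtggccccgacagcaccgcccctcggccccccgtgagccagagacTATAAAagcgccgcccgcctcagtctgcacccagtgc

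With the RefSeq start base counted as 0, the RelA match, GGAAATTCC, ran from −153 to −145 and the GAS match, TTCCCGGAA, from −42 to −34. The TATA match lay from 13 to 18, after the RefSeq start, and the GENCODE start of the gene lies 45 bases downstream of the RefSeq start. Both strands were searched, in these windows and in 32544 promoters of the same length. The RelA element was present in 0.928% of them, the GAS element in 8.33% and the TATA box in 13.6%. The longer NF-kB consensus, searched by the standard degenerate pattern, was found in 4.53% of promoters and not in the windows of Icam1, Alcam or F11r. The AP-1 element TGANTCA, present in 7.79%, matched F11r alone among the 3. These matches describe letters in a window and not binding.

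Each library held between 31294089 and 46435401 counts, and 3 counts corresponded to between 0.0646 and 0.0959 counts-per-million (CPM). On the first principal component wild-type replicate 2 lay far out, at 139 with all others between −30.7 and 0.26, and Il17ra-/- replicate 1 did so on the second; values without these libraries are given for Icam1, Vcam1 and Thy1. Il17ra itself was higher in the libraries labelled Il17ra-/-, at 181 to 284 CPM against 75.9 to 119 CPM, so its level goes against a loss of the whole transcript, and every direction reported here rests on those labels. The myofibre markers were present in the libraries, with a sum over 10 genes of 1206 to 3021 CPM in the wild-type-labelled libraries and 3474 to 4540 CPM in those labelled Il17ra-/-. All 10 had a positive log2 fold change, with a median of 0.79, and 4 of them passed the threshold given below. A sum over 11 markers of fibro-adipogenic progenitors, cells of the muscle stroma, was far higher, at 69635 to 75351 against 58710 to 75313 CPM. The part of such differences in makeup in the levels of the adhesion genes was not tested. The leukocyte marker Ptprc reached 0.461 CPM at most and the endothelial marker Pecam1 3.38 CPM. In bulk libraries, fewer cells of a type and less RNA per cell cannot be told apart.

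In the libraries labelled Il17ra-/-, Icam1 and Thy1 fell, by 2.62-fold and 1.47-fold, and none of the other genes passed the threshold, a Benjamini-Hochberg adjusted p under 0.05 over all 16039 tested genes by edgeR's quasi-likelihood test. Of the 9 genes 8 were tested and Icam2 was too low. The 2 genes called compare with 3.06% of all tested genes called in either direction, 1.71% lower and 1.35% higher, and nothing is read from this count because the list was chosen with these differences known. For Icam1, Thy1 and Vcam1, 3 of the 8, the ranges of the groups were separate, as they were for 9.18% of all tested genes. The median log2 fold change of the 8 genes, Il17ra-/- minus wild type, was −0.07, and that of all tested genes was −0.0027.

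**Figure D1:**
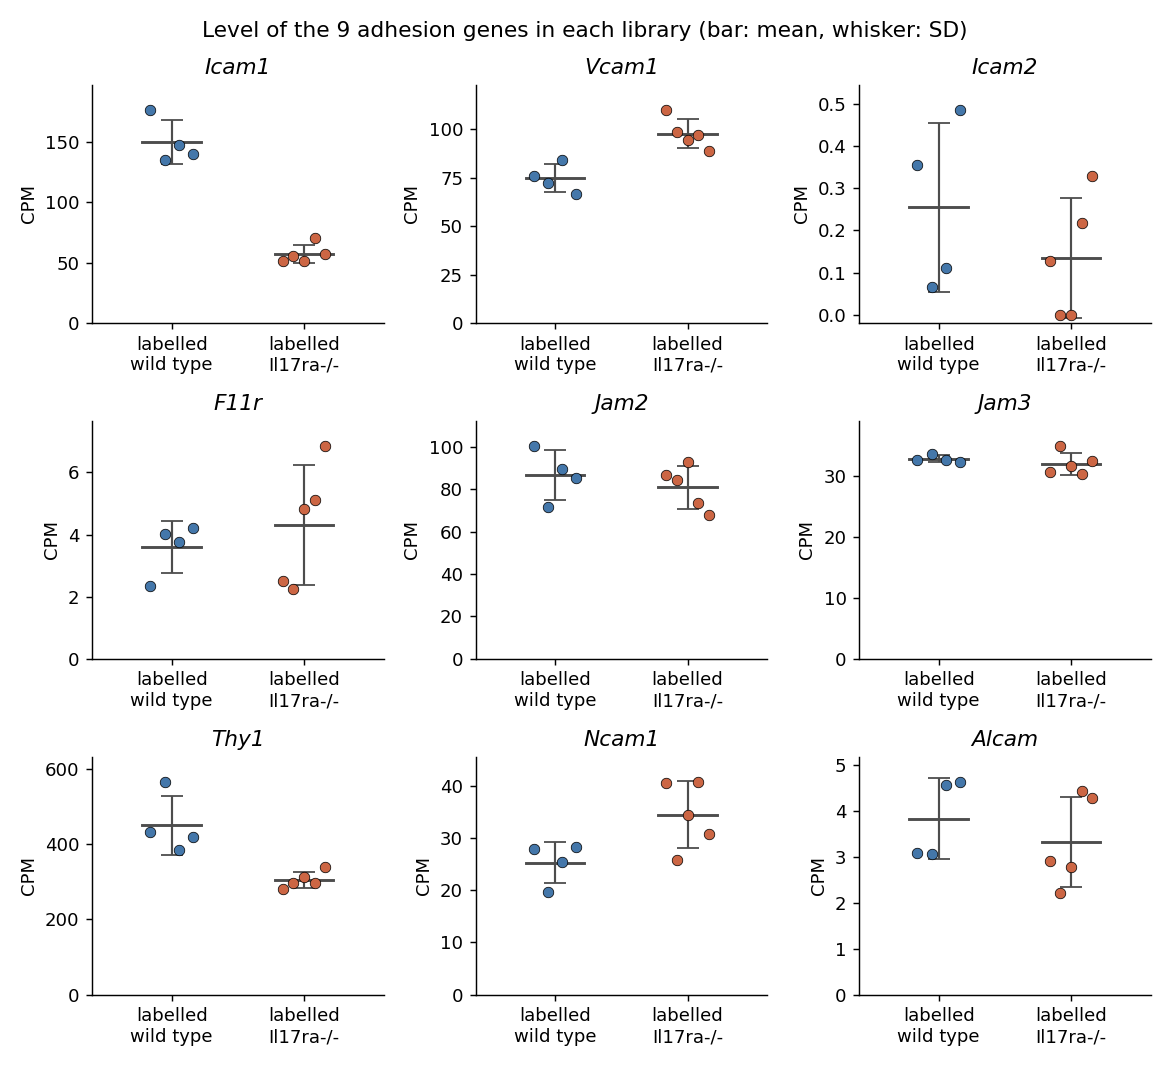
Level of each of the 9 adhesion genes in CPM (linear axis) in the 4 libraries labelled wild type (blue) and the 5 labelled Il17ra-/- (orange). Points are libraries, horizontal bars means and whiskers SD. Icam1 separates into 135 to 176 against 51.2 to 70.3 CPM, and Vcam1 lies the other way round, at 66.8 to 84.1 against 89.0 to 110 CPM, without passing the threshold.

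Icam1, the inducible leukocyte receptor, showed the widest separation. It lies on chromosome 9 from 21015985 to 21028817 (GRCm38, plus strand) with 4360 bp of exon. The libraries labelled wild type held 176, 135, 148 and 140 CPM in replicates 1 to 4, and the libraries labelled Il17ra-/- 51.4, 55.1, 51.2, 70.3 and 57.5 CPM in replicates 1 to 5. The lowest wild-type library thus stood well above the highest Il17ra-/- library, which was replicate 4. The means were 150 ± 18.3 CPM (SD, n = 4) and 57.1 ± 7.83 CPM (SD, n = 5), resting on 2020 to 6428 counts per library.

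The log2 fold change of Icam1 was −1.39 (SE 0.12, edgeR adjusted p = 1.10e-04), the fourth smallest p of all tested genes, although 59 of the 274 genes that fell had a larger fall. Without wild-type replicate 2 it was −1.43 (adjusted p = 3.84e-05), and without Il17ra-/- replicate 1 it was −1.35 (adjusted p = 6.30e-04). Over the 18 alternatives it ran from −1.48 to −1.30, and the call was kept in each, with an adjusted p of at most 0.00186. Exons of the antisense gene Gm47079 cover 11.7% of the exon length of Icam1, and reads there cannot be assigned to either gene without strand. That antisense gene held 50 counts in the 9 libraries together, against 32721 for Icam1.

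The family members Icam4 and Icam5 lie downstream of Icam1 on the same strand. Icam4, an erythroid adhesion molecule, was listed at 0 in all libraries, but its exons lie wholly under those of the antisense gene, so unstranded counting can give that 0 and no level is read from it. Icam5, a neuronal adhesion molecule, held 119 counts in the 9 libraries together and had a log2 fold change of 0.36 (SE 1.23, edgeR adjusted p = 0.917), with antisense genes over part of its exons as well. The summed level of 14 leukocyte markers was 19.4 to 38.0 CPM in the wild-type-labelled libraries and 10.3 to 18.6 CPM in those labelled Il17ra-/-. That lower sum rested on 1 gene. Cd68, a macrophage lysosomal protein, was the only marker of the 14 to pass and fell from 17.9 ± 5.20 to 2.58 ± 1.01 CPM (edgeR adjusted p = 2.17e-04), while Ptprc was near 0 in both groups. Without Cd68 the sum of the other 13 was 7.81 to 13.8 against 8.34 to 15.4 CPM, and the groups overlapped. Of the 8 tested leukocyte markers 6 had a positive and 2 a negative log2 fold change, with a median of 0.75. None of the 14 was at 0 in all libraries, and the part of Cd68-expressing cells in the Icam1 values was not tested. The summed level of 12 endothelial markers overlapped, at 286 to 478 against 343 to 404 CPM. Most of that sum was Tek, at 295 against 294 CPM, so it says little of the other markers. Of the 12, 4 had a positive and 8 a negative log2 fold change, with a median of −0.15, and none passed.

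Vcam1, the other inducible integrin receptor, was higher in every library labelled Il17ra-/- than in any labelled wild type, but did not pass the threshold. The gene is on chromosome 3 from 116109949 to 116129688 (minus strand). The wild-type-labelled libraries held 76.0, 72.0, 84.1 and 66.8 CPM, and the libraries labelled Il17ra-/- 110, 98.6, 94.4, 97.1 and 89.0 CPM. The gap between the groups was narrow, since the highest wild-type library, replicate 3, came close to the lowest Il17ra-/- library, replicate 5. The means were 74.7 ± 7.27 CPM (n = 4) and 97.8 ± 7.65 CPM (n = 5), a ratio of 1.31, and the log2 fold change was 0.39 (SE 0.10, edgeR adjusted p = 0.0662).

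The value of Vcam1 was 0.37 without wild-type replicate 2 and 0.34 without Il17ra-/- replicate 1. It passed in 2 of 18 alternatives, with library totals as the only scaling (0.45, adjusted p = 0.0305) and with DESeq2 (0.39, adjusted p = 0.0109), and its largest adjusted p over the alternatives was 0.156. Some markers of satellite cells and of pericytes and smooth muscle were higher in the same libraries. Of 10 satellite cell markers, Pax7, Cdh15 and Itga7 rose and none fell; the summed level of the 8 of them outside the adhesion list was 360 to 478 CPM in the wild-type-labelled libraries and 435 to 588 CPM in those labelled Il17ra-/-. Without the 3 that rose, the sum of the other 5 was 255 to 328 against 254 to 357 CPM. Of those 5, Sdc4 had the highest level, at 197 against 150 CPM (−0.40, edgeR adjusted p = 0.114). Of all 10 markers, Vcam1 and Ncam1 included, 9 had a positive log2 fold change and only Sdc4 a negative one. The median was 0.71. Of 10 pericyte and smooth muscle markers, 7 rose and none fell, with sums of 1691 to 1978 against 2608 to 3364 CPM. No marker of either list was at 0 in all libraries, and the part of these cells in the Vcam1 values was not tested.

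Set against each other, the NF-kB-responsive pair differed between the groups in its balance. Per kb of exon, the level of Icam1 was 4.72, 3.82, 3.58 and 4.25 times that of Vcam1 in the libraries labelled wild type. In the libraries labelled Il17ra-/- the ratio was 0.952, 1.14, 1.10, 1.47 and 1.31. The mean ratio was 4.09 ± 0.501 (n = 4) and 1.196 ± 0.201 (n = 5). By this measure Icam1 led Vcam1 in each wild-type library, and the genes were close to level in the others. That near equality depends on the exon length, which merges all annotated exons of a gene. In CPM, without that division, the ratio was 1.76 to 2.32 in the libraries labelled wild type. It was 0.468 to 0.723 in the libraries labelled Il17ra-/-, so Vcam1 had the higher CPM in each of them. The difference between the changes of the genes was not tested, because the pair was picked with the values known.

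**Figure D2:**
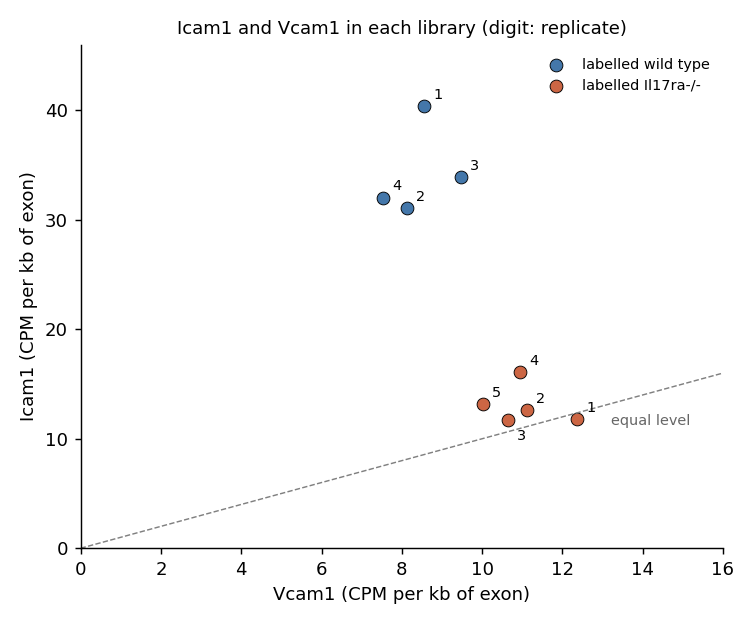
Icam1 (vertical) against Vcam1 (horizontal), both in CPM per kb of exon, with 1 point per library and its replicate number beside it; the dashed line marks equal levels. The libraries labelled wild type lie far above the line, at ratios of 3.58 to 4.72, and the libraries labelled Il17ra-/- near it, at 0.952 to 1.47.

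Icam2, which endothelium and leukocytes carry constitutively, was close to the detection limit. It lies on chromosome 11 from 106377656 to 106388075 (minus strand). The 9 libraries held 63 counts in all, and Il17ra-/- replicates 2 and 3 held none. The libraries labelled wild type stood at 0.356, 0.0656, 0.112 and 0.488 CPM and the libraries labelled Il17ra-/- at 0.127, 0, 0, 0.217 and 0.330 CPM. The ranges overlapped, and a two-sided exact permutation test over the 126 assignments of the labels gave p = 0.325. A difference in Icam2 was not detectable at these low counts. The levels of 12 endothelial markers were mixed, and none of them passed. Tek, a receptor kinase of endothelium, stood at 295 against 294 CPM and Kdr, the main VEGF receptor, at 41.9 against 38.6 CPM, whereas the junction genes Pecam1 and Cdh5 stood at 2.38 against 1.34 CPM and at 6.94 against 6.08 CPM.

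No junctional adhesion molecule passed the threshold, and for each of them the groups overlapped. Jam2, which encodes JAM-B, had the highest level of the family per kb of annotated exon. Its order against Jam3 is not resolved, because exons of an antisense gene lie over part of Jam3. Jam2 is on chromosome 16 from 84774123 to 84825928 (plus strand). Its level was 100, 71.3, 89.7 and 85.4 CPM in the wild-type-labelled libraries and 86.6, 84.3, 92.7, 73.3 and 67.9 CPM in those labelled Il17ra-/-. The groups overlapped over most of their range, and the log2 fold change was −0.10 (SE 0.13, edgeR adjusted p = 0.750).

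Jam3, which encodes JAM-C, the partner that binds JAM-B across cell contacts, had the smallest coefficient of variation of the 9 genes in both groups. It lies on chromosome 9 from 27097384 to 27155421 (minus strand). The libraries labelled wild type held 32.7, 33.7, 32.6 and 32.4 CPM, a coefficient of variation of 1.76%, and the libraries labelled Il17ra-/- 30.7, 34.9, 31.6, 30.3 and 32.5 CPM. The wild-type values fell inside the range of the Il17ra-/- values, and the log2 fold change was −0.04 (SE 0.10, edgeR adjusted p = 0.890). Exons of the antisense gene Gm48796, which held 407 counts in all, cover 36.2% of the exon length of Jam3, and reads there cannot be assigned without strand.

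F11r, which encodes JAM-A, a protein of epithelial and endothelial junctions and of platelets and leukocytes, was low and variable. The gene is on chromosome 1 from 171437535 to 171464603 (plus strand). The wild-type-labelled libraries held 2.36, 4.00, 3.77 and 4.22 CPM and the libraries labelled Il17ra-/- 2.52, 2.26, 4.83, 5.10 and 6.84 CPM, resting on 86 to 290 counts. The Il17ra-/- group spanned a wider range, with replicates 1 and 2 near the wild-type minimum and replicate 5 above all others. The log2 fold change was 0.26 (SE 0.35, edgeR adjusted p = 0.761). The sum of 8 epithelial markers ran from 2.62 to 51.2 CPM in the wild-type-labelled libraries and from 1.14 to 59.3 CPM in those labelled Il17ra-/-. It was highest in Il17ra-/- replicate 5, which also held the highest F11r. The other libraries did not follow that order. Il17ra-/- replicates 3 and 4 had the lowest sums, 1.90 and 1.14 CPM, with F11r at 4.83 and 5.10 CPM. Wild-type replicate 4 had a sum of 51.2 CPM with F11r at 4.22 CPM. The part of epithelial cells in the F11r values was not tested.

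Thy1, the lipid-anchored marker of fibroblasts, had the highest level of the 9 genes per kb of exon and was lower in the libraries labelled Il17ra-/-. It lies on chromosome 9 from 44043384 to 44048579 (plus strand). The libraries labelled wild type held 432, 566, 386 and 420 CPM and the libraries labelled Il17ra-/- 282, 298, 313, 298 and 339 CPM. The groups did not overlap, and wild-type replicate 2, the library that stood apart, was the highest. The means were 451 ± 79.0 CPM (n = 4) and 306 ± 21.5 CPM (n = 5).

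The log2 fold change of Thy1 was −0.56 (SE 0.12, edgeR adjusted p = 0.0217). It was −0.43 without wild-type replicate 2 (adjusted p = 0.0160), and the call was lost when Il17ra-/- replicate 1, 2, 3 or 4 was left out, with values between −0.57 and −0.53 and adjusted p-values between 0.0593 and 0.0636. Thy1 is also 1 of 12 markers of fibro-adipogenic progenitors, which form the stroma of muscle. Of that list 2 others fell, Pi16 (−0.55, adjusted p = 0.0207) and Cxcl14 (−0.62, adjusted p = 0.0237), and Hic1 rose (0.57, adjusted p = 0.0295). The sum of the 11 markers other than Thy1 was 69635 to 75351 CPM in the wild-type-labelled libraries and 58710 to 75313 CPM in those labelled Il17ra-/-. Gsn had the largest part of that sum, at 35987 against 33636 CPM, so it says little of the other markers. Of all 12 markers, Thy1 included, 3 had a positive and 9 a negative log2 fold change, with a median of −0.20. The sum of 9 Schwann cell markers outside the adhesion list was 852 to 1076 against 620 to 767 CPM, and was highest in wild-type replicate 2, as Thy1 was. Most of that gap came from Pmp22, a myelin protein gene also expressed outside nerve, which fell from 618 ± 77.5 to 443 ± 19.8 CPM (−0.48, edgeR adjusted p = 0.0230). Without it the sum of the other 8 overlapped, at 240 to 346 against 201 to 315 CPM, and of the 10 tested Schwann cell markers 5 had a positive and 5 a negative log2 fold change, with a median of −0.06. No marker of either list was at 0 in all libraries, and the part of these cells in the Thy1 values was not tested.

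Ncam1, the neural cell adhesion molecule of nerve, satellite cells and denervated fibres, had the highest positive log2 fold change of the 8 tested genes but did not pass. The gene is on chromosome 9 from 49502136 to 49798925 (minus strand). The wild-type-labelled libraries held 27.97, 19.7, 25.4 and 28.3 CPM and the libraries labelled Il17ra-/- 40.7, 25.8, 34.5, 40.8 and 30.8 CPM. The groups overlapped through Il17ra-/- replicate 2, and wild-type replicate 2 was the lowest. The log2 fold change was 0.45 (SE 0.16, edgeR adjusted p = 0.178). It did not pass in any of the 18 alternatives, in which it ran from 0.35 to 0.53.

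The marker lists that contain Ncam1 did not move alike. Pax7 (0.93), Cdh15 (0.94) and Itga7 (0.70) of the satellite cell list rose, with edgeR adjusted p-values of 0.00422, 0.00240 and 0.00884. None of the 9 tested genes of the list of denervated or regenerating fibres passed; Myog, a transcription factor of differentiating muscle cells, stood at 10.1 against 12.5 CPM and Chrna1, a subunit of the acetylcholine receptor, at 10.5 against 11.5 CPM. The summed level of that list without Ncam1 was 102 to 193 CPM in the wild-type-labelled libraries and 83.9 to 156 CPM in those labelled Il17ra-/-. Of the enzymes that add polysialic acid to NCAM, St8sia2 stood at 2.03 ± 0.677 against 3.30 ± 0.908 CPM (log2 fold change 0.70, edgeR adjusted p = 0.361), and St8sia4 was too low to test.

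Alcam, the homophilic adhesion molecule that CD6 binds, was low in all libraries. It lies on chromosome 16 from 52248996 to 52454074 (minus strand). The gene stood at 3.07, 3.05, 4.56 and 4.62 CPM in the wild-type-labelled libraries and at 2.90, 2.21, 2.78, 4.42 and 4.27 CPM in those labelled Il17ra-/-. The groups overlapped, with replicates 3 and 4 of the wild-type and 4 and 5 of the libraries labelled Il17ra-/- at the upper end. The log2 fold change was −0.21 (SE 0.30, edgeR adjusted p = 0.783), on 93 to 181 counts per library.

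**Figure D3:**
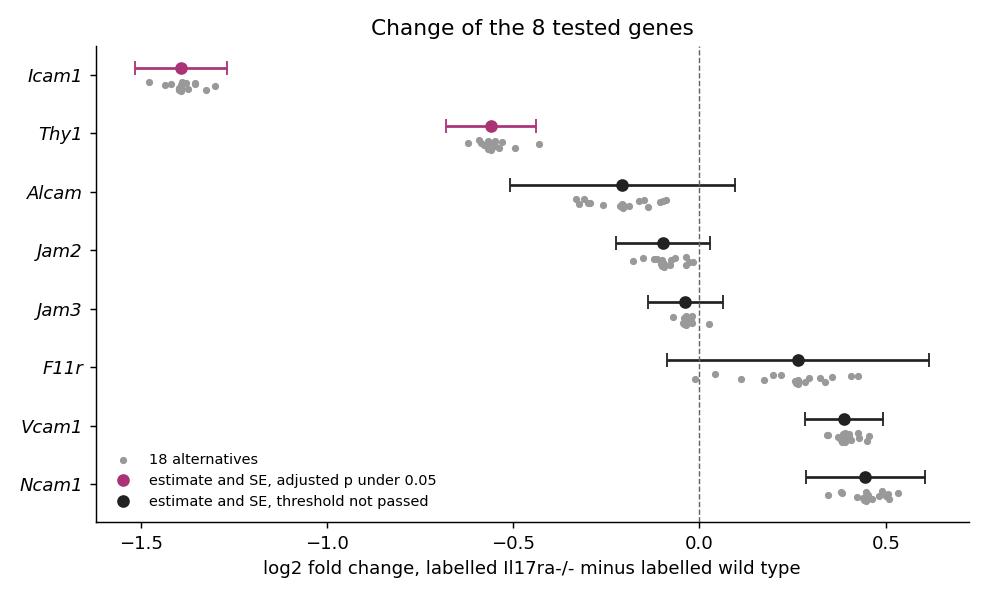
Log2 fold change of the 8 tested adhesion genes, labelled Il17ra-/- minus labelled wild type. Coloured or black points with whiskers are the estimate and its SE from all 9 libraries, and small grey points the values under the 18 alternatives. Icam1 at −1.39 and Thy1 at −0.56 are drawn in purple because they passed the threshold.

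Compared per kb of exon, which allows levels of different genes to be set side by side, Thy1 led in both groups with 151 ± 26.4 CPM per kb (n = 4) in the wild-type-labelled libraries and 102 ± 7.19 CPM per kb (n = 5) in the libraries labelled Il17ra-/-. In the libraries labelled wild type Icam1 followed at 34.3 ± 4.20 CPM per kb, then Jam2 (14.3 ± 1.98), Jam3 (10.3 ± 0.181), Vcam1 (8.42 ± 0.819), Ncam1 (2.92 ± 0.460), F11r (1.35 ± 0.316), Alcam (0.537 ± 0.124) and Icam2 (0.134 ± 0.105). No neighbours in that order had overlapping ranges of per-kb levels in the libraries labelled wild type. The exon length counts stretches under antisense genes, 36.2% of Jam3 and 11.7% of Icam1, where reads cannot be assigned without strand. Per-kb levels of these genes can therefore be too low, and the order of Jam2 and Jam3 is not resolved. In the libraries labelled Il17ra-/- Jam2 (13.4 ± 1.68), Icam1 (13.1 ± 1.80), Vcam1 (11.02 ± 0.862) and Jam3 (9.999 ± 0.569) formed a middle group in which each gene's range overlapped that of its neighbour, so their order is not resolved. Ncam1, F11r, Alcam and Icam2 followed in the same order as in the libraries labelled wild type, without overlap.

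**Figure D4:**
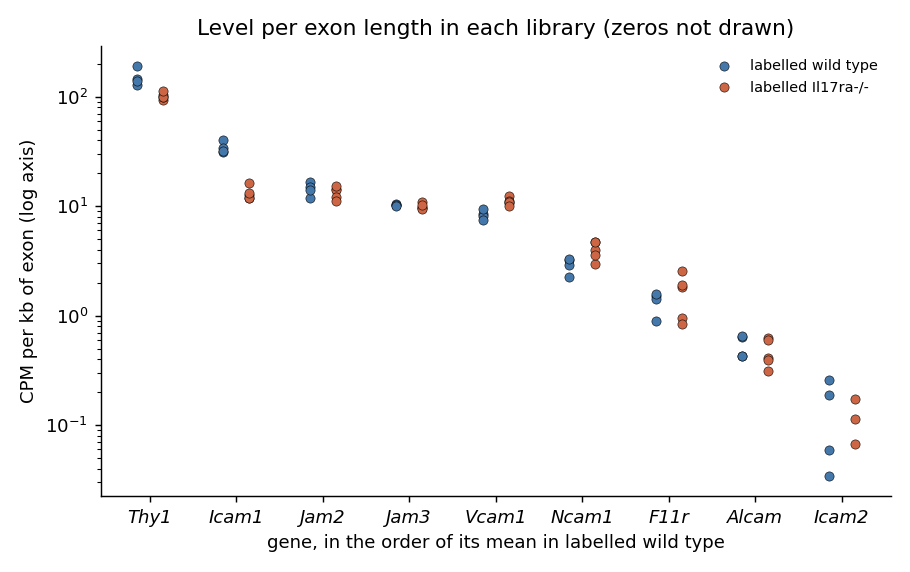
Level in CPM per kb of exon (log axis) of each adhesion gene in each library, in the order of the wild-type means; the 2 libraries without a count of Icam2 are not drawn. Icam1 stands alone below Thy1 in the wild-type-labelled libraries and lies among Jam2, Jam3 and Vcam1 in the libraries labelled Il17ra-/-.

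Genes whose library-to-library pattern was most like that of the 3 genes with groups that do not overlap were sought among 13386 genes with a mean of at least 1 CPM. The measure was Pearson's r of log2(CPM + 1) over the 9 libraries after the mean of each group had been subtracted, which removes the difference between the groups. Lrrc27 (0.96), Tob2 (0.96) and Rbfox1 (0.94) came closest to Icam1, Gjc3 (0.99), Myf5 (0.95) and Sh3rf3 (0.94) to Vcam1, and Tpm4 (0.99), Kctd2 (0.98) and Pigt (0.98) to Thy1. None of these 9 genes passed the threshold between the groups. The libraries share depth and makeup, and with 9 points a search over so many genes can return high values by itself. Between Icam1 and Vcam1 the same measure was 0.03.

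None of the tested binding partners passed, and the levels of the leukocyte integrin subunits were uneven. Itgal and Itgb2, the subunits of LFA-1 that bind ICAM-1 and ICAM-2, stood at 0.381 against 0.644 CPM and at 0.0898 against 0.610 CPM, and Cd6 did not exceed 0.213 CPM. Itgb7, a leukocyte integrin subunit that pairs with Itga4, stood at 55.1 against 54.7 CPM. Itga4, the VLA-4 subunit that binds VCAM-1, stood at 1.71 against 2.22 CPM, whereas its widely expressed partner Itgb1 stood at 703 against 759 CPM. Of the 17 binding partners 13 were tested, 7 had a positive and 6 a negative log2 fold change, and the median was 0.06. The smallest p-value belonged to the proteoglycan Sdc4, a partner of Thy1, which stood at 197 ± 22.3 against 150 ± 20.98 CPM (−0.40, edgeR adjusted p = 0.114).

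Of the other immunoglobulin-type adhesion genes, 1 of 18 tested rose and none fell, with a median log2 fold change of −0.05. The gene that rose was Mcam, the adhesion molecule CD146 of pericytes and endothelium, from 42.0 ± 5.29 to 65.4 ± 9.47 CPM (0.64, SE 0.13, edgeR adjusted p = 0.0151). The selectins and other molecules of leukocyte rolling had 6 tested genes and no call, with a median of −0.19. Cd34, a sialomucin of progenitors and vessels, stood at 2298 ± 238 against 1927 ± 70.4 CPM (−0.25, adjusted p = 0.219), and Podxl, a related sialomucin, at 4.96 ± 1.72 against 2.64 ± 1.22 CPM (−0.91, adjusted p = 0.255).

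None of 18 tested cytoplasmic anchors and junction scaffolds passed, and 13 of them had a positive log2 fold change, with a median of 0.25. The actin crosslinker Actn1, which binds the tail of ICAM-1, stood at 57.2 ± 13.8 against 72.0 ± 4.88 CPM (0.33, edgeR adjusted p = 0.260), and the endothelial tight junction gene Cldn5 at 0.977 ± 0.539 against 0.159 ± 0.154 CPM (−2.61, adjusted p = 0.153). Of the 10 tested shedding proteases, their inhibitor and sialyltransferases none passed, with a median of −0.01. Adam17, a protease that sheds VCAM-1 and ICAM-1, stood at 166 against 151 CPM. Adam8 was low, at 1.47 ± 0.290 against 0.638 ± 0.284 CPM (−1.20, SE 0.55, edgeR adjusted p = 0.297).

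The list of NF-kB and cytokine inputs holds receptors, subunits, inhibitors and targets of the pathway known to induce Icam1 and Vcam1. It had 7 falls and no rise among 19 tested genes, and 18 of the 19 had a negative log2 fold change. Its median was −0.42, beside −0.0027 over all tested genes. Irf1, an interferon regulatory factor that cytokines induce, fell from 650 ± 181 to 175 ± 35.7 CPM (−1.89, SE 0.18, edgeR adjusted p = 1.50e-04), and Nfkbia, the NF-kB inhibitor IκBα and itself an NF-kB target, from 391 ± 83.6 to 154 ± 22.7 CPM (−1.35, SE 0.15, adjusted p = 2.80e-04). Bcl3 (−1.57), Nfkbiz (−1.39), Tnfaip3 (−0.63) and Il6 (−1.68) fell as well, and Birc3 was just under the threshold (−0.48, edgeR adjusted p = 0.0498). The NF-kB subunit genes Rela (−0.34, edgeR adjusted p = 0.113) and Nfkb1 (−0.12, adjusted p = 0.570) did not pass. Neither did the subunit genes Nfkb2 (−0.31, adjusted p = 0.244), Rel (−0.42, adjusted p = 0.375) and Relb (−0.48, adjusted p = 0.0614). The receptor genes Il1r1 (−0.01), Tnfrsf1a (−0.11) and Ifngr1 (−0.24) did not pass either, and Il1b was listed at 0 in all libraries. Falls of Nfkbiz and Il6 in these libraries were known when the list was written, so it is not independent evidence of a direction.

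**Figure D5:**
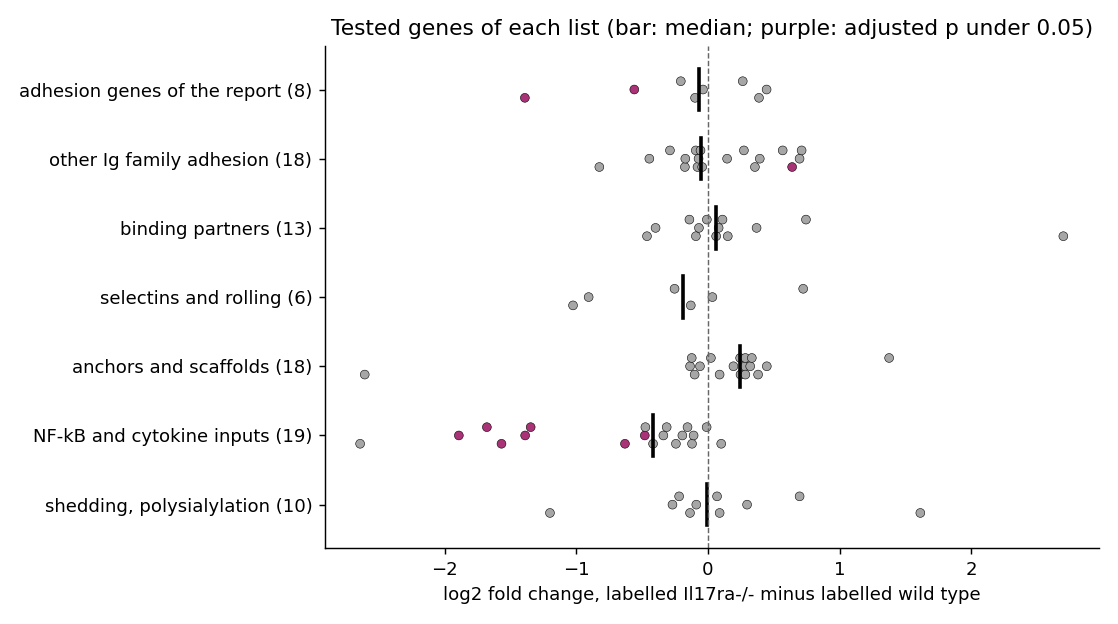
Log2 fold change (labelled Il17ra-/- minus labelled wild type) of each tested gene of the 9 adhesion genes and of the 6 lists of related genes, with the number of tested genes in brackets; the bar is the median and purple points passed the threshold. The NF-kB and cytokine list has its median at −0.42 and 7 purple points, all on the negative side.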

How the data were processed

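Total RNA of the 9 libraries was made into TruSeq v2 libraries, which do not mark strand, per the labels' protocols. The authors aligned reads with STAR, per the submitters' processing notes (version not given in the sources used here), and deposited whole-number read-pair counts per gene from featureCounts 1.6.0 over GENCODE M21 exons (GRCm38), per the file headers. No option for counting reads shared by overlapping genes is named there. All 55536 identifiers matched GENCODE M21.

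Counts were filtered with filterByExpr (16039 genes left), scaled with TMM factors and tested with edgeR 4.0.16 (R 4.3.3), quasi-likelihood, two-sided, genotype label as the only term, all 9 libraries, Benjamini-Hochberg adjustment over all tested genes. The SE was derived as |log2 fold change| divided by √F. CPM values use TMM factors and are given as mean ± SD. The procedure was tested on simulated counts. Alternatives were 3 scalings, 2 filters, DESeq2 1.42.0, limma-voom 3.58.1, a robust fit, a replicate block and leaving out each library. Of 192 list entries 191 matched.

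Members, lists and tests were chosen with earlier results of these data known. Named genes are the 9 members, Il17ra, per list the called genes with the smallest p (up to 6) or else the 2 with the smallest p, and the 3 genes most like each member whose groups do not overlap. Other genes were named for their role after their values were seen. A gene that this rule names among the binding partners is not reported here.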

Additional observations from a re-analysis of the deposited data

How the results depend on the processing

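Icam1 was called under all 18 alternatives and Ncam1, Jam2, Jam3, Alcam and F11r under none; Thy1 was called under 13 (log2 fold change −0.62 to −0.43) and Vcam1 under 2. A change of sign was seen for Jam3 with library totals as the only scaling (0.026) and for F11r with the replicate block (−0.013). Over all genes 491 were called, between 275 (without Il17ra-/- replicate 3) and 567 when 1 library was left out, 323 without Il17ra-/- replicate 1, and 1017 with DESeq2; the cause was not tested. Of the calls 55.8% were lower, and 41.3% with library totals only. Of the adhesion genes 1 to 2 were called when 1 library was left out. Replicate numbers are shared between groups. Deviations of same-numbered libraries from their group means correlated at r from −0.017 to 0.056. No correlation with any other number was higher than 0.056, and the best match had the same number for wild-type replicates 3 and 4. This check therefore cannot tell whether the numbers pair libraries. The replicate block covered numbers 1 to 4 and so fewer libraries. With it 366 genes and 1 adhesion gene were called, and Thy1 was lost (−0.58, edgeR adjusted p = 0.0546). Icam2 had few counts and was tested only without a filter on low counts or without wild-type replicate 2 or 3. Its log2 fold changes there ran from −1.23 to −0.90, with no call.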
